A study of Mus musculus with 12 samples.

Results

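The genes of the contractile apparatus of smooth muscle and of the actomyosin cytoskeleton were examined in C18-4 cells, an immortalized mouse line made from spermatogonia. A fixed list of 46 genes was matched by symbol to the 17576 genes of the expression table, and all 46 were found. They comprise 19 smooth muscle genes, 21 broadly expressed genes of actin filaments, non-muscle myosin and adhesion sites, and 6 regulators. The whole series holds 12 RNA-seq libraries in 4 groups of 3. The knockdown cells, named C18_5251KD in the labels and KD here, carried a mixture of shRNAs against lncRNA5251 in the lentivirus vector LV3, and the 3NC cells carried a control shRNA in LV3. The overexpression cells, named C18_5251OV in the labels and OV here, carried lncRNA5251 in the vector LV5, and the 5NC cells carried LV5 with no insert. All groups are stably transfected cells of this single line, labelled as from IRC mice, with no stated age and no further allele. Each treated group is compared with the control of its own vector. The labels do not say that the 3 libraries of a group came from separate cultures, so the p-values measure the spread between these libraries, which may be technical.

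Contraction in muscle and in other cells rests on myosin II, which pulls on actin filaments when its regulatory light chain is phosphorylated. Smooth muscle adds its own isoforms, such as the actin Acta2 and the heavy chain Myh11, while nearly every cell makes the cytoplasmic actins Actb and Actg1 and the non-muscle heavy chains. In the testis, smooth muscle proteins are best known from the peritubular myoid cells around the seminiferous tubules. Transcription of these genes is driven by the factor SRF with its myocardin-family coactivators, through an element called the CArG box. The purine-rich element binding proteins Pura and Purb are known repressors of Acta2, which bind near a CATTCC motif in its promoter.

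The link between the knockdown and these genes was examined from the sequences. The 3 shRNAs of KD each had an exact sense match in Purb and in no other gene among 141767 annotated mouse transcripts, and 0 of the 46 genes were matched. They are shown because they give the gene that the knockdown libraries can be checked against. The control shRNA matched no transcript.
shRNA 1: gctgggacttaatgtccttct
shRNA 2: gcatgggcaattcaaacaaat
shRNA 3: gcttattatgcatcgtaaacc
Purb (Entrez gene 19291) was at 32.92, 34.11 and 33.84 RPKM (read numbers normalized to gene length and library size) in 3NC, and at 8.93, 8.79 and 10.25 in KD. It was at 29.18, 32.09 and 30.71 in 5NC and at 23.94, 24.2 and 33.25 in OV. All KD libraries thus lay below all others, while OV replicate 3 lay above its 5NC controls and the other OV libraries lay below them. LncRNA5251 itself was not analysed here.

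Promoter windows from 250 bases before to 50 bases after the transcription start were taken from RefSeq on mouse build GRCm38.p6, which lists 40 of the 46 genes. Those of Acta2 (chr19:34255324-34255623, minus strand) and Myl9 (chr2:156775214-156775513, plus strand) are shown because these were the smooth muscle genes with the largest differences below, and that of Srf (chr17:46556113-46556412, minus strand) because it encodes the factor itself. Capitals mark CATTCC on either strand in Acta2 and CArG boxes in Myl9 and Srf.
Acta2: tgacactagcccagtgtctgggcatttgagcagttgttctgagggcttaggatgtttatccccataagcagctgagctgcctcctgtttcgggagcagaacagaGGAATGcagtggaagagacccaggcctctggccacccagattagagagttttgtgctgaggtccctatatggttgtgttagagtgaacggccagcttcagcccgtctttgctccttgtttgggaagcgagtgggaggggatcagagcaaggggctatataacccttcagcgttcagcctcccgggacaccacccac
Myl9: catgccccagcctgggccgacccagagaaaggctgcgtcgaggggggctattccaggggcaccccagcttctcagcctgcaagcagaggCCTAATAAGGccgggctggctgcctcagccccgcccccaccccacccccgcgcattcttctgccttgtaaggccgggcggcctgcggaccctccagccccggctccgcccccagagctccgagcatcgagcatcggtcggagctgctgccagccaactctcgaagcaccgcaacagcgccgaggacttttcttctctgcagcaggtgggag
Srf: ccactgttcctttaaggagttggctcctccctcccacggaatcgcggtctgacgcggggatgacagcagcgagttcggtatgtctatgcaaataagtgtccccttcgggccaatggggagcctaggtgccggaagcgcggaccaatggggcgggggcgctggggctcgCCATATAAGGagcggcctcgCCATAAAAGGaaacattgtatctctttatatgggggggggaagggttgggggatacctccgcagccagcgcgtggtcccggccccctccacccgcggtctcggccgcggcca
The CATTCC motif of Acta2, read on the other strand, lies at position -146 from the start site, and the Myl9 CArG box at -161. The Srf window holds 2 CArG boxes. An exact CArG box was found on either strand in the windows of Actg1, Cnn2, Myl9, Vcl, Srf, Fhl1 and Fhl2, 7 of 40 (17.5%), against 1.57% of all 27025 promoters of this length. CATTCC was present in 13 of 40 (32.5%) against 14.6% of all, and GGNGGNGGN, a repeat of the kind that Pur proteins are known to bind, in 34 of 40 (85%) against 44.8%. Of the 15 smooth muscle windows, 3 had a CArG box, 7 had CATTCC and 11 had GGNGGNGGN. Of the members with a called log2 fold change of at least 0.5 in size in KD or OV below, Csrp2 is not listed. Of the others, Myl9 and Fhl1 had an exact CArG box and Acta2 had CATTCC, while Myl12b and Myh14 had neither of these motifs. GGNGGNGGN was present in Myl9, Myl12b and Myh14 and absent from Acta2 and Fhl1. Only exact CArG boxes were searched for, so a box with a differing base, in Acta2 or any other window, was not counted or marked. A match is only a match of letters and not a measured binding site.

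Summed RPKM ranged from 533099 to 580920 over the libraries, and its depth relative to the mean, read from the smallest steps of 39 low genes, lay between 0.942 and 1.03. The absolute number of reads is unknown. The label of the cells was checked with 10 germ cell markers, of which 1 (Id4) reached the level tested. Ret, Kit and Nanos2 were at 0 in all libraries, Ddx4 and Dazl were at most 0.07 and 0.04 RPKM, and the list summed to between 1.15 and 2.49 RPKM. Of 10 Sertoli markers 5 reached that level, and the list summed to 61.9 to 73.4 RPKM, of which Wt1 alone made 49.83 to 57.46, with Sox9 at most 0.03. Leydig and endothelial markers summed to at most 2.39 and 0.8. Libraries stood apart by GC content: the deviation of a library from its group mean correlated with the GC content of 11236 genes with r = -0.66 in KD replicate 3 and -0.55 in OV replicate 3, against 0.28 and 0.56 in the other KD libraries and 0.46 and 0.29 in the other OV libraries. Of the 41 members tested, 30 had their lowest KD value in replicate 3.

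Of the 46 genes, 41 reached 1 RPKM in at least 3 libraries and were tested. The 5 below this level were all smooth muscle genes, and they include the defining ones. The smooth muscle heavy chain Myh11 was at 0.01 to 0.07 RPKM over the 12 libraries. The gamma smooth muscle actin Actg2 was at 0 in all but 1 library of each of KD, 5NC and OV, and at most 0.11. Mylk, the kinase of the regulatory light chain, lay between 0.07 and 0.28, Synpo2 between 0.08 and 0.21, and Lmod1, which nucleates actin in smooth muscle, between 0 and 0.07. The other 14 smooth muscle genes were therefore measured in cells with hardly any mRNA of the smooth muscle myosin heavy chain, and the counts that follow do not cover the 5.

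In KD against 3NC, 19 of the 41 tested members rose and 5 fell, and Myl9 and Acta2 rose most. Here rose and fell mean an adjusted p of at most 0.05 (limma on log2(RPKM + 1), Benjamini-Hochberg over 11435 genes), a level that 31.9% of all genes passed upwards and 23.5% downwards. Among smooth muscle genes 9 of 14 rose and 1 fell (median log2 fold change 0.28). Among broadly expressed genes 8 of 21 rose and 3 fell, with a median of 0.09, and among regulators 2 of 6 rose and 1 fell, with a median of 0.18. The median over all genes tested was 0.04. The share of risers was thus above the background for smooth muscle genes and near it for the other members, and the difference between the classes was not tested. The 2 members Acta2 and Myl9 also passed a stricter limit, as 1.57% of all genes did. This limit is an adjusted p up to 0.001 with a log2 fold change of at least 1 in size. It is called the 2-fold limit below and refers to RPKM + 1, so a low gene can differ 2-fold in RPKM without passing it. Without KD replicate 3, 10 of 14 smooth muscle and 10 of 21 broadly expressed genes rose, and the regulators that had risen no longer passed, where 31.3% of all genes rose and 22.4% fell.

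**Figure D1:**
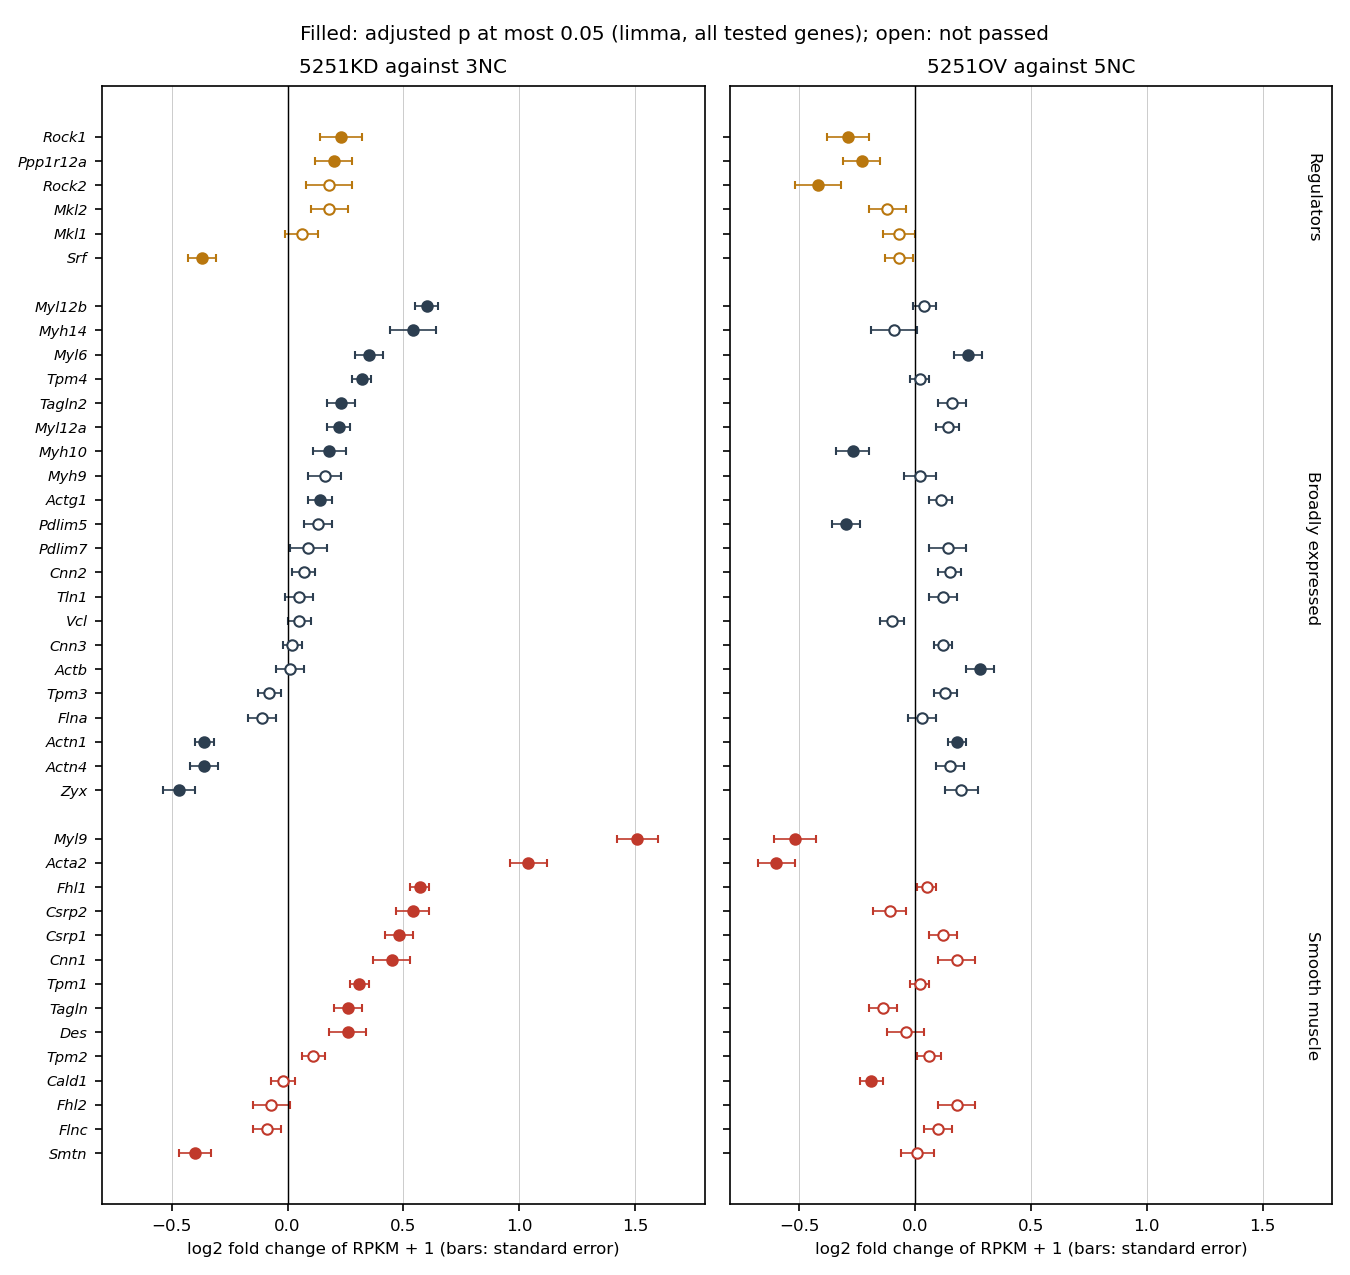
The log2 fold change of RPKM + 1 (horizontal axis, with standard error bars) is plotted for the 41 tested members, grouped into smooth muscle, broadly expressed and regulator genes, for KD against 3NC on the left and OV against 5NC on the right. Filled points passed an adjusted p of 0.05. Myl9 at 1.51 and Acta2 at 1.04 lie farthest to the right on the left side, and the same genes lie farthest to the left, at -0.52 and -0.60, on the right side.

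Acta2 (Entrez gene 11475), the alpha actin of smooth muscle, was at 8.16, 8.29 and 9.1 RPKM in 3NC and at 18.36, 20.18 and 17.31 in KD. The groups did not overlap, and the log2 fold change was 1.04 (SE, the standard error, 0.08, adjusted p = 3.27e-08, limma). Without KD replicate 2 it was 0.99, just under the 2-fold limit on RPKM + 1, so that 1 member in place of 2 passed that limit. In 5NC Acta2 was at 19.51, 21 and 23.1 RPKM, a range that overlapped that of KD and reached above it. In OV it was at 14.73, 13.48 and 12.7, below every 5NC library and above every 3NC library. Acta2 was therefore lowest in 3NC, and the order of the groups was 3NC, OV, KD and 5NC, of which KD and 5NC overlapped.

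The cytoplasmic actins did not follow Acta2. Actb was at 1250.3, 1183 and 1210.3 RPKM in 3NC and at 1194.25, 1307.09 and 1160.75 in KD, a log2 fold change of 0.01 with overlapping groups (SE 0.06, adjusted p = 0.94, limma). Actg1 was at 1403.94, 1359.24 and 1380.57 RPKM in 3NC and at 1536.55, 1565.33 and 1450.86 in KD, a rise of 0.14 on the log2 scale (adjusted p = 0.0207, limma). That call was lost when 3NC replicate 2 or 3 or KD replicate 1 or 2 was left out, with adjusted p from 0.0559 to 0.0873 (limma). Acta2 made up 0.327% ± 0.0218 of the summed RPKM of these 3 actins in 3NC, 0.836% ± 0.0893 in 5NC, 0.675% ± 0.0205 in KD and 0.469% ± 0.0131 in OV (SD, n = 3). Reads of Actg1 and Actb are less certain, since 57% and 30.2% of their windows of 35 bases recur exactly in other genes, against 1.1% for Acta2.

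**Figure D2:**
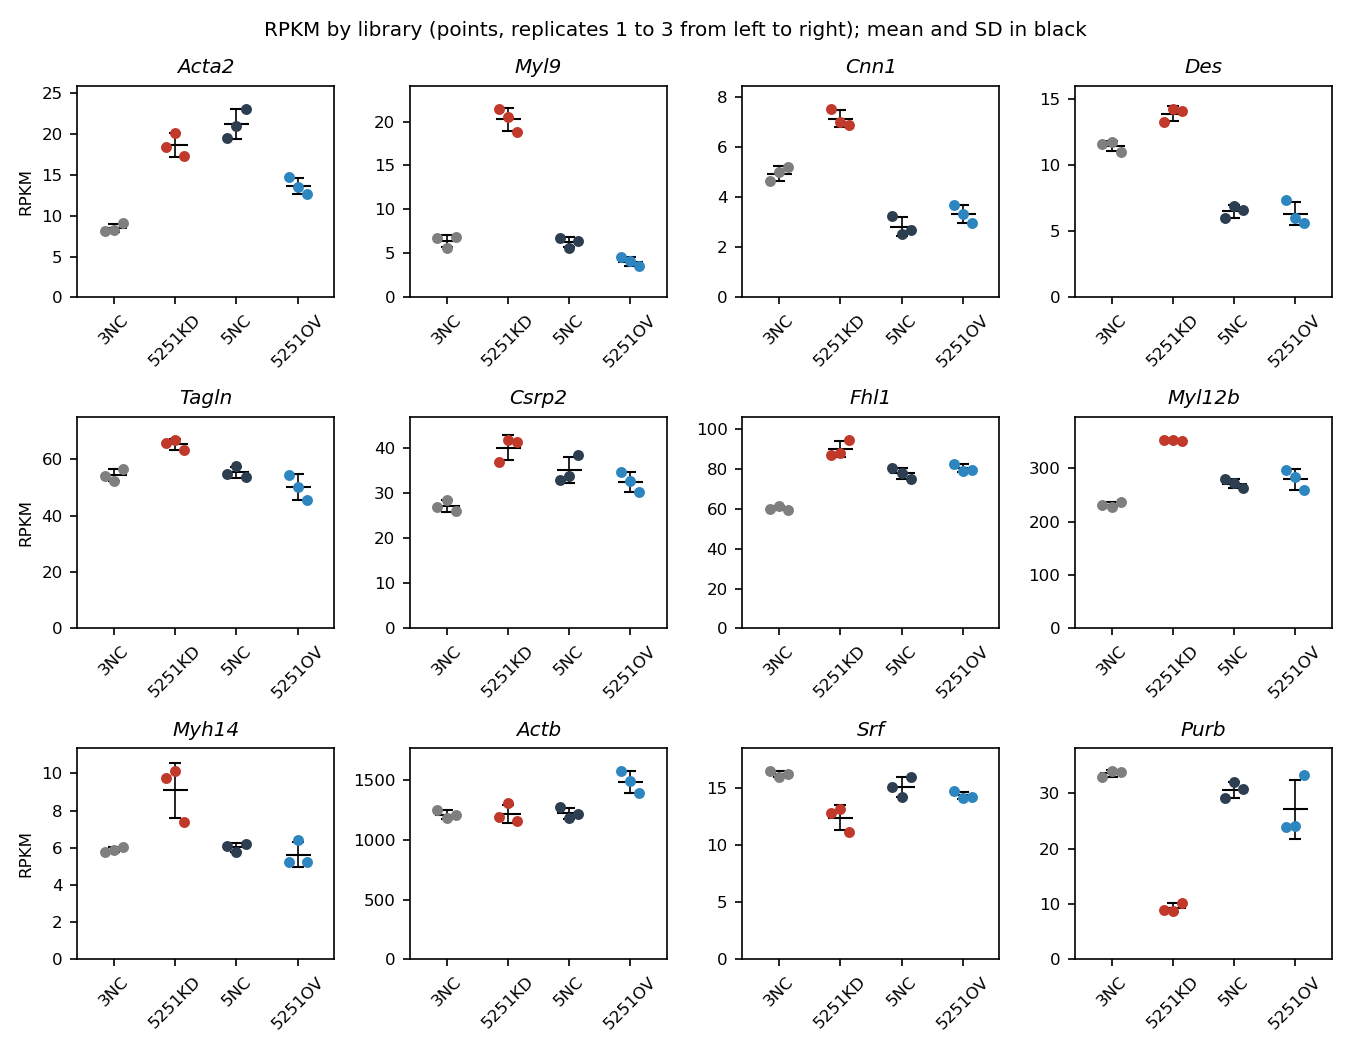
RPKM (vertical axes, from 0) is plotted for each library of the 4 groups, with the mean and SD in black, for 10 smooth muscle and actomyosin members, Srf and Purb. Myl9 is high in KD alone, at 18.82 to 21.46 RPKM, while Acta2 is low in 3NC, at 8.16 to 9.1, and Cnn1 and Des are higher in 3NC and KD than in 5NC and OV.

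All 4 myosin light chains rose in KD. Myl9 (Entrez gene 98932), the regulatory light chain of smooth muscle myosin, was at 6.77, 5.67 and 6.93 RPKM in 3NC and at 21.46, 20.48 and 18.82 in KD. It had the largest rise of the members, 1.51 on the log2 scale (SE 0.09, adjusted p = 4.33e-09, limma). In 5NC it was at 6.75, 5.65 and 6.41 RPKM, within the range of 3NC or just below it. Unlike Acta2, Myl9 therefore separated KD from both controls. Myl12b, a regulatory light chain of non-muscle myosin, was at 232, 227.71 and 236.4 RPKM in 3NC and at 353.41, 352.63 and 350.57 in KD, a rise of 0.60 (SE 0.05, adjusted p = 9.65e-08, limma). Its near copy Myl12a rose by 0.22 and the essential light chain Myl6 by 0.35. Within the regulatory light chains, the share of Myl9 was 0.753% ± 0.0663 in 3NC, 0.637% ± 0.0586 in 5NC, 1.85% ± 0.169 in KD and 0.382% ± 0.0233 in OV (SD, n = 3). The share of Myl12b was 27.1% ± 0.191 in 3NC, 27.5% ± 0.584 in 5NC, 32.2% ± 1.13 in KD and 26.2% ± 0.0918 in OV. Of the windows of 35 bases, 31% recur in other genes for Myl12a and 15.9% for Myl12b, each other included, so reads could be split between them, while for Myl9 it was 0.0914%.

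**Figure D3:**
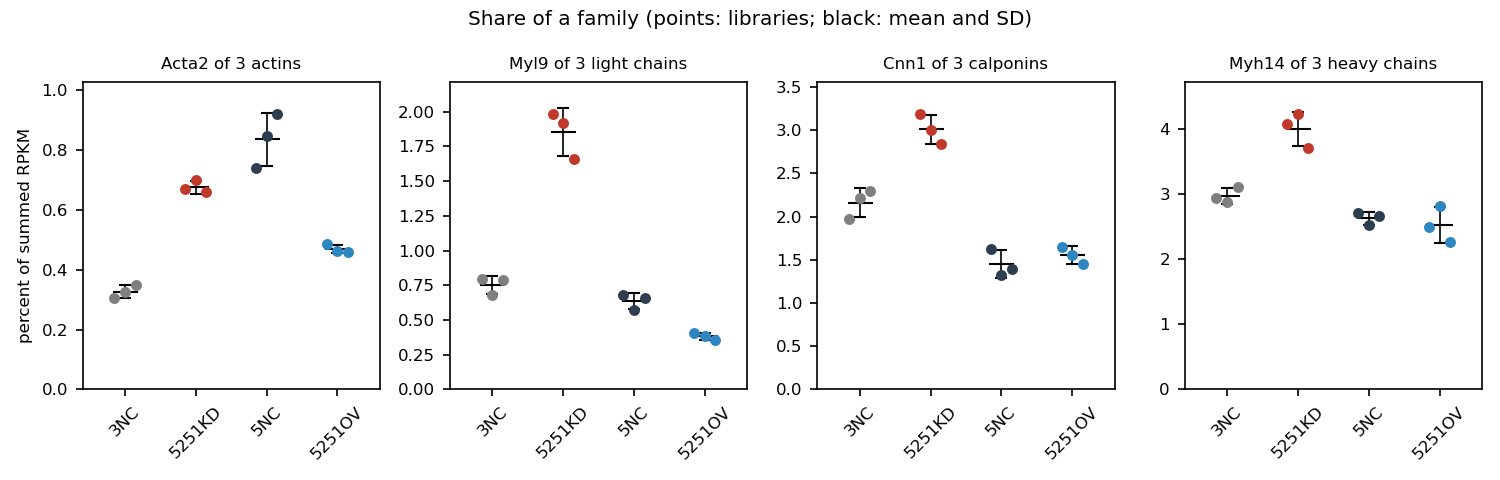
The share of a family's summed RPKM, in percent (vertical axes, from 0), is plotted for each library with the mean and SD in black. From left to right these are Acta2 among Acta2, Actb and Actg1, Myl9 among Myl9, Myl12a and Myl12b, Cnn1 among Cnn1, Cnn2 and Cnn3, and Myh14 among Myh9, Myh10 and Myh14. The Myl9 share was highest in KD, at 1.66% to 1.98%, and the Acta2 share in 5NC, at 0.741% to 0.918%.

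Of the 3 tested heavy chains, Myh14 and Myh10 rose. Myh14, the heavy chain of non-muscle myosin IIC and the least abundant of the 3 tested, was at 5.76, 5.89 and 6.04 RPKM in 3NC and at 9.73, 10.14 and 7.37 in KD, a rise of 0.54 (SE 0.10, adjusted p = 2.67e-04, limma). Replicate 3 of KD was the lowest of its group but above all 3NC libraries. Its share among the 3 heavy chains was 2.97% ± 0.118 in 3NC and 4.00% ± 0.265 in KD. Myh9, the heavy chain of myosin IIA, was at 142.14, 147.27 and 140.26 RPKM in 3NC and at 172.03, 172.36 and 138.65 in KD. Its log2 fold change of 0.16 did not pass the test (adjusted p = 0.053, limma), and without KD replicate 3, which lay below 3NC, it was 0.26 (adjusted p = 1.53e-04, limma). Myh10, of myosin IIB, rose by 0.18 (adjusted p = 0.0379, limma), a call lost without 3NC replicate 1 or 3 or KD replicate 1 or 2 (adjusted p from 0.0999 to 0.118, limma) and with quantile normalization (adjusted p = 0.0566, limma).

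Among proteins that bind and stabilize the actin filament, both muscle and broadly expressed forms rose. The calponin of smooth muscle, Cnn1, was at 4.63, 4.99 and 5.21 RPKM in 3NC and at 7.53, 7 and 6.88 in KD, with no overlap and a rise of 0.45 (SE 0.08, adjusted p = 3.04e-04, limma). Its relatives Cnn2 and Cnn3 had log2 fold changes of 0.07 and 0.02 and did not pass the test. The share of Cnn1 among the 3 calponins was 2.16% ± 0.169 in 3NC, 1.45% ± 0.161 in 5NC, 3.01% ± 0.172 in KD and 1.55% ± 0.0968 in OV (SD, n = 3). Tagln, the early smooth muscle protein also called SM22 alpha, was at 54.22, 52.47 and 56.66 RPKM in 3NC and at 65.75, 66.99 and 63.27 in KD, a rise of 0.26 (SE 0.06, adjusted p = 0.00177, limma). Tagln2 of non-muscle cells rose by 0.23, so that Tagln made up 22.1% ± 0.275 of the pair in 3NC and 22.6% ± 0.393 in KD. Of the tropomyosins, which lie along the filament, Tpm1 rose by 0.31 and Tpm4 by 0.32, while Tpm2 (0.11) and Tpm3 (-0.08) did not pass the test.

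Des, the intermediate filament protein desmin of muscle cells, was at 11.56, 11.73 and 10.98 RPKM in 3NC and at 13.23, 14.26 and 14.12 in KD. It rose by 0.26 (SE 0.08, adjusted p = 0.0125, limma), and without 3NC replicate 3 the log2 fold change was 0.23 with an adjusted p of 0.05 (limma), just past the limit. Smtn, which encodes smoothelin and marks contractile smooth muscle, went the other way, from 22.95, 22.66 and 22.79 RPKM in 3NC to 18.43, 18.19 and 14.72 in KD, a log2 fold change of -0.40 (adjusted p = 2.92e-04, limma). It was the only smooth muscle member that fell, although Flnc fell too after a correction of each library for GC content and length. Cald1, the actin-binding caldesmon, had a log2 fold change of -0.02 and did not pass.

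Among members with LIM domains, Fhl1, Csrp2 and Csrp1 rose, and Zyx, described with the adhesion proteins, fell. Fhl1 was at 59.92, 61.4 and 59.26 RPKM in 3NC and at 86.76, 88.02 and 94.51 in KD, a rise of 0.57 (SE 0.04, adjusted p = 8.11e-08, limma). Csrp2, found in smooth muscle, was at 26.99, 28.59 and 26.05 RPKM in 3NC and at 36.99, 41.87 and 41.46 in KD, a rise of 0.54 (SE 0.07, adjusted p = 1.05e-05, limma). Csrp1 rose by 0.48, and Fhl2, Pdlim5 and Pdlim7 had log2 fold changes between -0.07 and 0.13 that did not pass.

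The broadly expressed members that fell were crosslinkers of actin filaments and an adhesion protein. The alpha-actinins Actn1 and Actn4 each fell by 0.36 on the log2 scale (adjusted p = 7.26e-06 and 8.6e-05, limma), and Zyx, the adhesion protein zyxin, fell by 0.47 (adjusted p = 6.54e-05, limma). Zyx was at 109.95, 99.32 and 107.34 RPKM in 3NC and at 80.99, 80.88 and 66.45 in KD. Flna (-0.11), Flnc (-0.09), Vcl (0.05) and Tln1 (0.05), which are filamins, vinculin and talin, did not pass. After the GC and length correction Flna (-0.14, adjusted p = 0.00539, limma) and Flnc (-0.12, adjusted p = 0.00569, limma) fell. The lowest KD value of Actn1, Actn4, Zyx, Smtn, Flna, Flnc and Tln1 was in replicate 3, and without that library Actn1, Actn4, Zyx and Smtn still fell while Tln1 rose by 0.13 (adjusted p = 0.0244, limma).

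Among the regulators, Srf fell while its coactivators did not pass the test. Srf (Entrez gene 20807) was at 16.47, 15.89 and 16.21 RPKM in 3NC and at 12.78, 13.16 and 11.15 in KD, a log2 fold change of -0.37 (SE 0.06, adjusted p = 1.86e-04, limma). It was at 15.05, 14.14 and 15.96 in 5NC and at 14.68, 14.09 and 14.14 in OV, so KD was below every other library. The coactivators Mkl1 and Mkl2, also called Mrtfa and Mrtfb, had log2 fold changes of 0.06 and 0.18. Rock1 and Ppp1r12a, a kinase and a phosphatase subunit that act on the regulatory light chain, rose by 0.23 and 0.20 (adjusted p = 0.0393 and 0.042, limma), and Rock2 (0.18) did not pass. The Rock1 call was lost without 3NC replicate 1 or 3 or KD replicate 3, and that of Ppp1r12a without any of 5 libraries, with adjusted p from 0.0545 to 0.19 (limma).

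**Figure D4:**
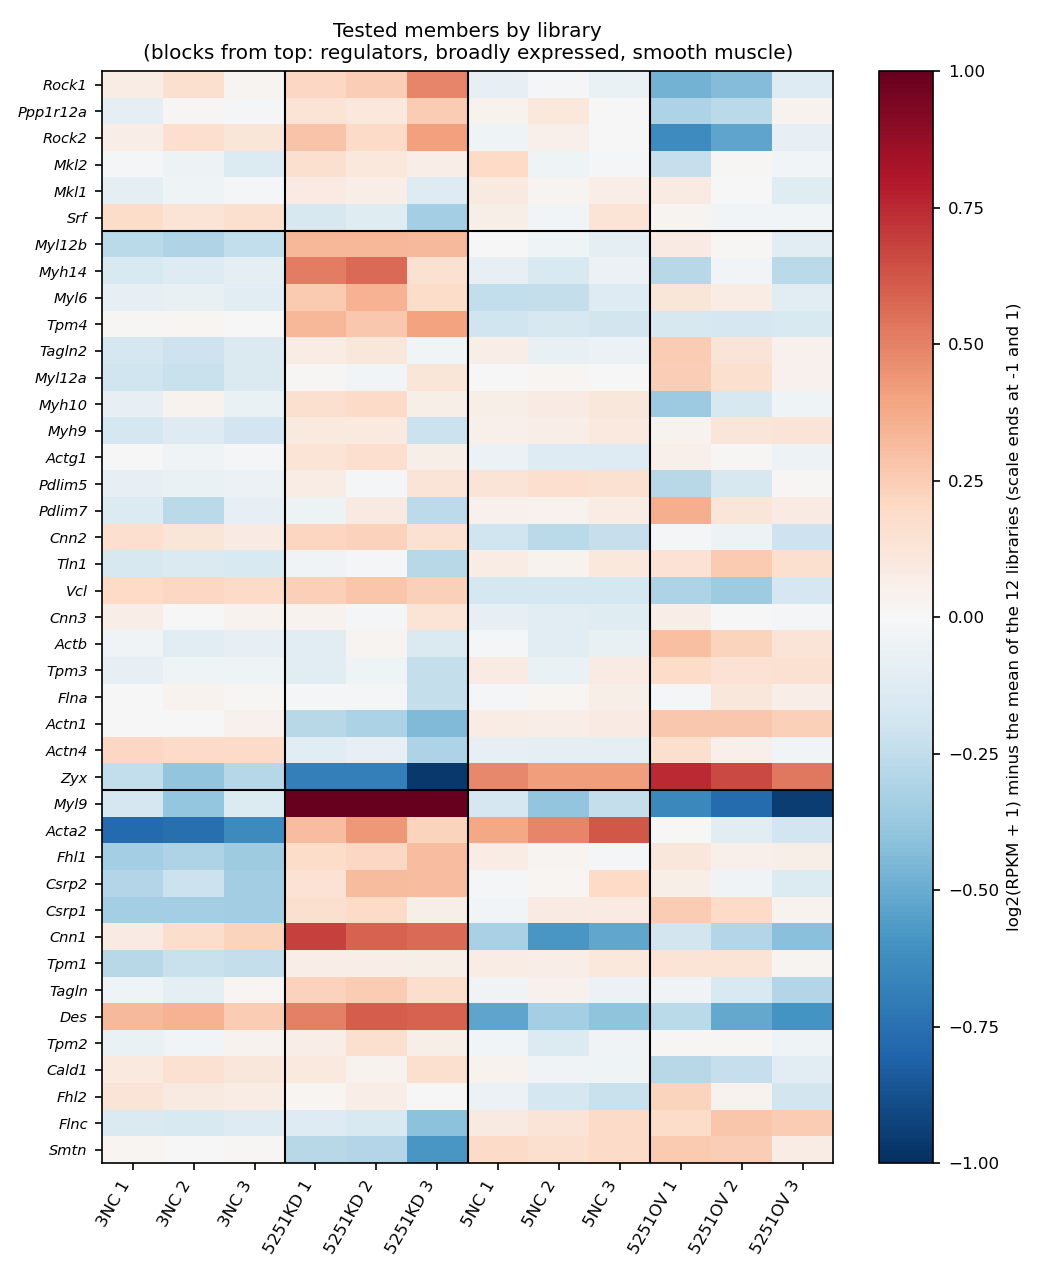
Colour shows log2(RPKM + 1) of each tested member minus its mean over the 12 libraries, by library in columns and gene in rows, with regulators, broadly expressed and smooth muscle genes as blocks from the top. Myl9 is red in all KD libraries, Acta2 is blue in all 3NC libraries, and Zyx is blue in KD and red in 5NC and OV.

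In OV against 5NC, Acta2 and Myl9 were again the members with the largest differences, now downwards, and most other members moved little. Of the 41, 3 rose and 8 fell, where 8.07% of all genes rose and 13.9% fell. After quantile normalization the balance over all genes moved from 923 higher and 1595 lower to 939 higher and 950 lower, and that of the members to 2 and 8. The stricter 2-fold limit was passed by 0 members and 0% of all genes in limma, while 13 members were higher and 9 lower at an unadjusted p under 0.05, as 14.0% and 23.1% of all genes were. Among smooth muscle genes 0 of 14 rose and 3 fell (median log2 fold change 0.02), and at an unadjusted p under 0.05 (limma) 2 were higher and 4 lower. Among broadly expressed genes 3 of 21 rose and 2 fell, with a median of 0.12. At that unadjusted limit 11 of these 21 were higher and 2 lower. The difference between the classes was not tested. The median over all genes was -0.03.

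Acta2 fell by 0.60 on the log2 scale in OV (SE 0.08, adjusted p = 2.44e-04, limma). Myl9 was at 4.59, 4.13 and 3.53 RPKM in OV, below every 5NC and every 3NC library, and fell by 0.52 (SE 0.09, adjusted p = 0.00248, limma). Both calls held in all 6 fits without a library. Tagln was at 54.58, 50.23 and 45.47 RPKM in OV against 54.63, 57.73 and 53.69 in 5NC, a log2 fold change of -0.14 that did not pass (adjusted p = 0.0913, limma) but did without OV replicate 1 (-0.21, adjusted p = 0.0356, limma), after the GC and length correction (-0.19, adjusted p = 0.00358, limma) and after quantile normalization (-0.16, adjusted p = 0.0496, limma). Cnn1 was at 3.68, 3.33 and 2.98 RPKM against 3.24, 2.54 and 2.7 in 5NC, a log2 fold change of 0.18 (adjusted p = 0.132, limma), with overlapping groups, which passed without OV replicate 3 (0.24, adjusted p = 0.0416, limma) and after quantile normalization (0.27, adjusted p = 0.0398, limma). Des was at 7.33, 6.02 and 5.63 RPKM against 5.97, 6.93 and 6.6, a log2 fold change of -0.04.

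Actb was at 1582.23, 1492.99 and 1398.22 RPKM in OV against 1273.52, 1182.77 and 1215 in 5NC, the largest rise of a member here at 0.28 (SE 0.06, adjusted p = 0.0046, limma). Actn1 rose by 0.18 (adjusted p = 0.0111, limma) and Pdlim5 fell by 0.30 (adjusted p = 0.00627, limma), and with Actb, Acta2 and Myl9 they made up the 5 of 11 calls that held without any library, although Actn1 did not pass after quantile normalization (0.11, adjusted p = 0.117, limma). The calls of Myl6 (0.23), Myh10 (-0.27), Cald1 (-0.19), Rock1 (-0.29), Rock2 (-0.42) and Ppp1r12a (-0.23) were each lost without at least 1 library, with adjusted p of at least 0.0507 (limma). Rock2 shows the spread behind this: OV replicates 1 and 2 were at 20.09 and 21.58 RPKM and replicate 3 at 29.73, next to 5NC at 30.65, 32.8 and 31.78. The transcripts of Rock1, Rock2 and Ppp1r12a have GC contents of 40.2%, 41.4% and 39.7%, the lowest of the members, and lengths of 6440, 7644 and 4212 bases. The deviations of OV replicates 1 and 3 from their group mean correlated with GC content, as given above, and also with log2 transcript length (r = -0.53 and 0.55 over 11236 genes), and the part of either in these calls was not tested by itself. Without OV replicate 3, 13 members rose and 9 fell, where 14.6% of all genes rose and 21.9% fell. The 13 were 10 broadly expressed genes and Cnn1, Csrp1 and Fhl2 of the smooth muscle genes. After a correction of each library for GC content and length 12 rose, 11 of them broadly expressed, and 6 fell, where 13.6% of all genes rose and 10.6% fell. Acta2, Myl9, Tagln and Rock2 were among the 6, while Rock1 and Ppp1r12a no longer passed, each with a log2 fold change of -0.07, nor did Cald1 (-0.06).

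The control groups themselves differed in these genes. In 5NC against 3NC, which differ in vector and in the control shRNA, 14 of the 41 members rose and 9 fell, where 31.0% of all genes rose and 25.6% fell. Acta2 rose by 1.22 (SE 0.08, adjusted p = 3.76e-09, limma) and was the only member past the 2-fold limit, which 2.61% of all genes passed. Cnn1 fell by 0.64 (adjusted p = 1.21e-05, limma) and Des by 0.73 (limma adjusted p = 1.96e-06), from 11.42 ± 0.393 to 6.50 ± 0.488 RPKM (SD, n = 3). Zyx rose by 0.75 (adjusted p = 5.72e-07, limma), while Myl9 had a log2 fold change of -0.04 and Tagln of 0.02. What the vector, the control shRNA and the history of the cells each contribute cannot be told apart, and this holds for every comparison with 5NC of cells that carry LV3.

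The knockdown was therefore also set against 5NC, a comparison that shares its KD libraries with the one above and its 5NC libraries with that of OV. Of the 41 members, 17 were higher and 8 lower in KD, where 34.0% of all genes were higher and 31.4% lower. Of the smooth muscle genes 7 of 14 were higher and 3 lower, and of the broadly expressed genes 8 of 21 were higher and 4 lower. Past the 2-fold limit, as 3.55% of all genes were, lay Myl9 with a log2 fold change of 1.55 (SE 0.09, adjusted p = 1.78e-09, limma), Cnn1 with 1.09 (SE 0.08, adjusted p = 2.94e-08, limma) and Zyx with -1.22 (SE 0.07, adjusted p = 2.09e-09, limma). Zyx was singled out after its values were seen. Des, at 0.99, lay just under this limit and passed it in some alternatives, such as a pseudocount of 0.1 (1.08). Acta2, in contrast, had a log2 fold change of -0.18 with overlapping groups (adjusted p = 0.0497, limma). Over 12 alternatives the adjusted p (limma) ranged from 0.0183 to 0.226, and the call held in 3 of them, those without KD replicate 2, without 5NC replicate 1 and with the GC and length correction. It was lost in the others, among them quantile normalization (-0.15, adjusted p = 0.111, limma) and the replicate number as a block (adjusted p = 0.0633, limma).

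Member by member, the log2 fold changes against 3NC and against 5NC share the KD libraries and are given side by side. Myl9 changed by nearly the same amount against each control, 1.51 and 1.55, and so did Tagln (0.26 and 0.24) and Myh14 (0.54 and 0.51). Cnn1 (0.45 and 1.09) and Des (0.26 and 0.99) passed both tests with a larger difference against 5NC, in which these genes were low. Fhl1 (0.57 and 0.21), Csrp2 (0.54 and 0.19) and Myl12b (0.60 and 0.38) passed both with a smaller difference against 5NC, and Csrp2 was lost there without KD replicate 2 or 3 or 5NC replicate 1 or 2 (adjusted p from 0.0818 to 0.117, limma). Tpm4 (0.32 and 0.52), Myl6 (0.35 and 0.47), Actg1 (0.14 and 0.23) and Rock1 (0.23 and 0.37) were higher by both tests. Tpm1 (0.31 and -0.02) and Csrp1 (0.48 and 0.09) passed against 3NC alone, as did Tagln2, Myl12a, Myh10, Ppp1r12a and, downwards, Actn4. After the GC and length correction Csrp1 (0.14, adjusted p = 0.00333, limma) and Tagln2 (0.14, adjusted p = 9.03e-04, limma) were higher against 5NC too. With quantile normalization Myl12a was lower against 5NC (-0.14, adjusted p = 0.00642, limma). Cnn2, Cnn3, Tpm2, Vcl and Rock2 were higher, and Tpm3, Flnc and Tln1 lower, by the test against 5NC alone. Of these the calls of Rock2, Tpm3 and Tln1 were lost without KD replicate 3 and without at least 1 of the 5NC libraries (adjusted p from 0.0583 to 0.094, limma), and the log2 fold change of Tln1 went from -0.18 to -0.09 without KD replicate 3. Actn1 (-0.36 and -0.42), Smtn (-0.40 and -0.57), Zyx (-0.47 and -1.22) and Srf (-0.37 and -0.27) fell by both. After the GC and length correction Srf did not pass against 5NC (-0.11, adjusted p = 0.0688, limma). In the main fit Acta2 was the only member called in opposite directions, with the call against 5NC lost in most alternatives, as given above.

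**Figure D5:**
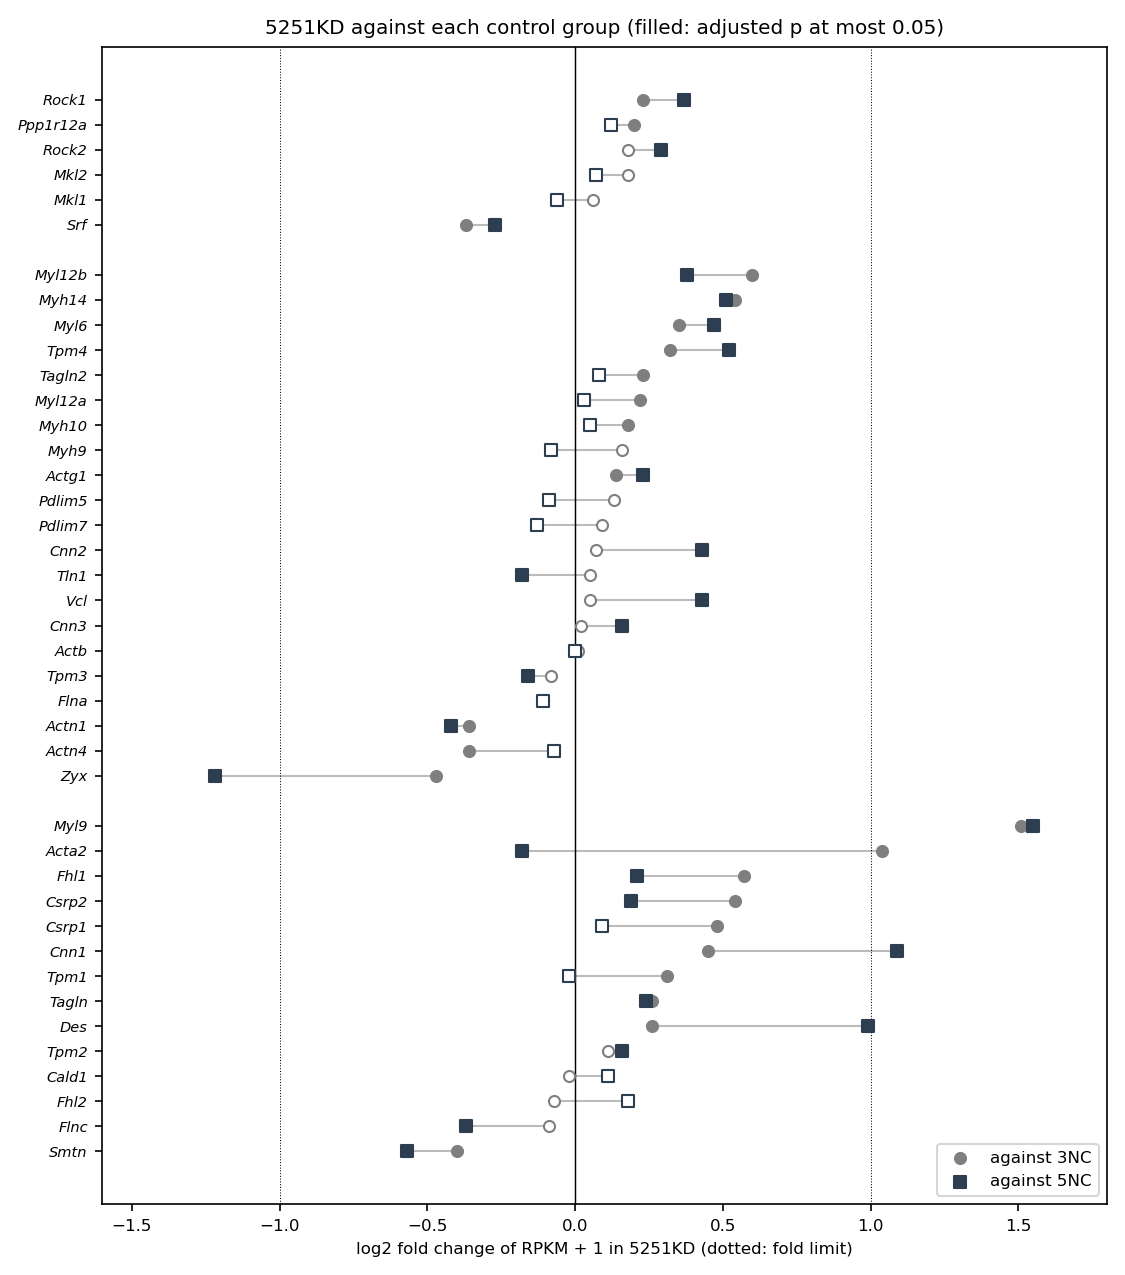
The log2 fold change of RPKM + 1 in KD (horizontal axis) is plotted for each tested member against 3NC (circles) and against 5NC (squares), joined by a line, with filled symbols where the adjusted p was 0.05 or less and dotted lines at the 2-fold limit. The symbols of Myl9 lie together at 1.51 and 1.55, those of Acta2 lie apart at 1.04 and -0.18, and those of Zyx at -0.47 and -1.22.

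Of 32 genes of actin dynamics, 9 rose (28.1%) and 13 fell (40.6%) in KD against 3NC, beside 31.9% and 23.5% of all genes, with a median of -0.05. The largest differences were those of Pdlim2 (0.67) and the profilin Pfn2 (0.60) upwards and of Arpc1b (-0.57), a subunit of the Arp2/3 complex, and the profilin Pfn1 (-0.53) downwards. Pfn2 was also higher against 5NC (1.14), and Pfn1 rose by 0.37 in OV against 5NC (adjusted p = 0.00449, limma).

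Of 22 tested regulators of Acta2, 7 rose and 7 fell in KD against 3NC, 31.8% in each direction, beside 31.9% and 23.5% of all genes (median -0.03), so the share that rose was at the background. Purb had the largest difference in KD against 3NC, -1.75 (SE 0.10, adjusted p = 1.69e-09, limma). Against 5NC the value of Purb was -1.62, and another gene of the list had a larger difference there (-1.89). Tead4, of the family that binds CATTCC, rose by 0.57 (adjusted p = 5.91e-06, limma), was higher by 0.16 against 5NC (adjusted p = 0.0472, limma) and rose by 0.40 in 5NC against 3NC. The TGF-beta receptor Tgfbr1 rose by 0.36, did not pass against 5NC (-0.12) and rose by 0.48 in 5NC against 3NC. Klf5 fell by 0.36, and by 0.48 against 5NC. Of the troponins of heart and skeletal muscle, Tnnt1, Tnnt2 and Tnnc1 reached the level tested. Tnnt1 rose by 0.85 and was also higher against 5NC (0.83), and Tnnc1 did not pass (-0.19). Tnnt2 fell by 0.47 against 3NC but was higher by 1.50 against 5NC.

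Markers of fibroblasts differed between the groups. Of 7 markers 4 were tested, and all 4 rose in KD against 3NC (median 0.61) and in 5NC against 3NC (median 1.13), where Acta2 rose, Cnn1 and Des fell, and Myl9 and Tagln did not pass. The list summed to 308 to 319 RPKM in 3NC, 411 to 499 in KD, 609 to 615 in 5NC and 619 to 651 in OV, mostly from Col1a1, while Thy1 was at most 0.04 and Col1a2 at most 0.58. Dcn rose by 0.71 in KD against 3NC and was lower by 1.61 in KD than in 5NC. The list was lowest in 3NC. In OV against 5NC, Col3a1 fell by 0.17 (adjusted p = 0.0169, limma), while Dcn (-0.05) and Col1a1 (0.15) did not pass. Clu, a Sertoli marker, was at 2.40 to 3.13 RPKM in 3NC and at 4.90 to 8.24 in the other groups, and rose by 0.85 in KD against 3NC (adjusted p = 4.8e-06, limma) and by 1.05 in 5NC against 3NC (adjusted p = 4.78e-07, limma). Markers of peritubular myoid cells, of which Acta2, Cnn1, Des, Myh11 and Actg2 are members here, summed to 28.3 to 29.4 RPKM in 3NC, 42.1 to 44.9 in KD, 31.6 to 35.5 in 5NC and 24.2 to 28 in OV, and the remaining Ptch1 and Pdgfra were at most 2.73 and 1.4. Macrophage markers summed to 4.13 to 5.67 RPKM in 3NC and to 1.33 to 2.89 in the other groups, nearly all of it from Cd68, while Ptprc and Csf1r were at most 0.07 and 0.06. Fewer cells of a type and less RNA per cell cannot be told apart in such bulk libraries, and the part of these markers in the results was not tested.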

How the data were processed

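RNA-seq libraries of C18-4 cells, 3 for each of 3NC, KD, 5NC and OV, were grouped by their labels. Per the study's methods, mRNA was enriched with oligo(dT), read on an Illumina HiSeq, and mapped with SOAPaligner 2.20; the labels name total RNA. The authors deposited RPKM for 17576 genes. Their genome build is not given in the sources used here. RPKM keeps neither read numbers nor a library's bias by GC content or length, and reads shared by near copies depend on the mapping.

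From these, log2(RPKM + 1) was computed for 11435 genes that reached 1 RPKM in 3 or more libraries, a scale that understates changes of low genes. With limma 3.58.1 (R 4.3.3), 1 model with the group as its term and a mean-variance trend was fitted to the 12 libraries, followed by Benjamini-Hochberg adjustment over all genes tested. An exact permutation of 3 against 3 libraries cannot go below 0.1. On simulated data with 200 changed genes among 11309 (KD against 3NC, 2-fold), 199 were called in the right direction, with 17 unchanged genes called. The simulated errors were independent between genes, unlike the GC trends of the real libraries, and far fewer genes changed. The rate of wrong calls in the real data was therefore not measured. The stricter limit (adjusted p of at most 0.001, 2-fold) has the cutoffs of the study's methods but was applied here to RPKM + 1. The study's own test needs read numbers and was not used here.

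Named are members past an adjusted p of 0.05 whose log2 fold change was 0.5 or more in size in KD or OV against its control, a fixed set of 11 members whatever their values, others where a family is described, Purb, and at most 4 genes of each further list by size of change. The members and lists were chosen with earlier results of these data known. Depth was compared from multiples of the smallest value of low genes, whole within 0.15. Transcript GC, length and shared windows are from GENCODE on GRCm38, available for 98.3% of tested genes. Alternatives were a pseudocount of 0.1, no filter, quantile normalization, only the libraries compared, a replicate block, each library left out, and, added after seeing the data, a GC and length correction. Results of 1 further gene list and of 1 gene, and the counts of the list of other muscle genes, are not reported here.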

Additional observations from a re-analysis of the deposited data

How the results depend on the processing

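Of 816 values recomputed under other settings, 743 stayed on the same side of zero and of the limit, or, for counts of members, stayed within 1.5 times. No called value of a named gene changed sign, and the medians of all genes moved by less than 0.1 with quantile normalization and with the GC and length correction. Where no cause is named, the cause was not tested. In KD against 3NC the members higher (19) lay between 15 and 20 and the members lower stayed at 5 over the fits that leave out a library of these groups, and 1 or 2 passed the 2-fold limit. Without OV replicate 3, which is in neither group, 23 were higher, where 34.3% of all genes were (a fit added after seeing the data). In OV against 5NC, the members higher (3) lay between 2 and 13, the highest without OV replicate 3, and the members lower (8) between 4 and 9. Leaving out KD replicate 3, which is in neither group but in the shared estimate of the spread, gave 11 members higher there, with 10.2% of all genes higher. The GC and length correction gave 12 members higher in OV against 5NC, and 14 lower in 5NC against 3NC in place of 9. In KD against 5NC the members lower (8) lay between 5 and 10, and 5 were found without KD replicate 3 or without 5NC replicate 3.

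The replicate numbers did not pair the libraries: same-numbered libraries had deviations from their group means correlated between -0.18 and -0.03 for KD with 3NC and between -0.13 and 0.18 for OV with 5NC. With the replicate number as a block the members higher in OV against 5NC were 6 in place of 3, and those in KD against 3NC stayed at 19 higher and 5 lower. Low genes are limited by depth, and RPKM does not give the reads behind a value.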
